A study of Mus musculus with 6 samples.

Results

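The microRNA (miRNA) miR-210 was followed through both strands of its hairpin, mmu-miR-210-3p and mmu-miR-210-5p, in whole kidney of male C57BL/6 mice. The entries were chosen by name, as the array rows whose systematic name is one of these, which gave 2 of the 1247 mouse miRNAs on the array. C57BL/6 is a standard inbred laboratory strain. Kidneys of 2-month-old mice (3 arrays, here the 2-month group) were compared with kidneys of 20-month-old mice (3 arrays, the 20-month group). The labels give no genotype change and no treatment in either group. The 6 RNA preparations were labelled with Cy3, and each was read on a separate Agilent miRNA array with a single colour. Nothing in the labels says whether preparations of one age came from different animals. The p-values therefore cover variation among the preparations only, part of which may be technical, and 3 arrays per age limit the precision.

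miR-210 is the miRNA best known for its response to low oxygen. Its gene is switched on by hypoxia-inducible factor (HIF), the transcription factor that the von Hippel-Lindau protein removes when oxygen is plentiful. The 3p strand is the one generally loaded into Argonaute, where it represses transcripts such as Iscu, which encodes a scaffold for iron-sulphur clusters, and thereby limits mitochondrial respiration. In the kidney the medulla is normally poor in oxygen, and renal tumours that have lost the von Hippel-Lindau protein are known for high miR-210.

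The hairpin is shown first because both members are cut from it and the array measured them separately. RefSeq places Mir210 on the minus strand at chr7:141221384-141221493 (GRCm38.p6), between Rassf7 and Gm51460, with 0 other RefSeq genes over it. This build differs from the mm9 of the array design, and both mature names were found in the RefSeq table. In the line below the capitals mark the 5p strand (bases 28 to 49) and, after a loop of 16 bases, the 3p strand (bases 66 to 87).
Mir210 hairpin: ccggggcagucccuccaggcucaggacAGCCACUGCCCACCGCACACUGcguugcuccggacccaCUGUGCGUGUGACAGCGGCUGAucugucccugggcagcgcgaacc

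The mature strands are given with the seed, bases 2 to 8, in capitals, since the seed is the part that pairs with target transcripts.
miR-210-3p: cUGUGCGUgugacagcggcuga
miR-210-5p: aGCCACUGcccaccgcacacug

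Each strand has 22 bases. Neither seed was shared with another miRNA on the array among the 1017 of 1247 with a RefSeq sequence (0 others for each strand). The seeds of the remaining array miRNAs were not compared. The predicted fold of the hairpin, by RNAfold, had an energy of -48.0 kcal/mol and 16 base pairs between the strands. Both strands are rich in G and C, with 63.6% in miR-210-3p and 68.2% in miR-210-5p. Over the 155 tested miRNAs with a sequence the median was 45.5%, and 13 of the 155 reached the share of miR-210-3p, itself included.

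Sequences close to a member could add to its signal, so the longest stretch shared with another array miRNA is shown in capitals for each strand. Only the 1015 others with a RefSeq sequence were compared. Of the 193 tested miRNAs, 155 had a sequence, and the rest could not be compared. For miR-210-3p the longest was 8 bases, in 3 miRNAs, and for miR-210-5p it was 9 bases, in 2 miRNAs.
miR-293-5p: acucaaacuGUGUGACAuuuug
miR-3067-3p: ccaAGCGGCUGcccugggagagg
miR-542-3p: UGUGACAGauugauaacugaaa
let-7g-3p: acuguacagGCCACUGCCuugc
miR-324-3p: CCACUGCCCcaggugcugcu

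All 5 of these miRNAs were well above background on 0 of the 6 arrays. An array spot is called well above background by the scanner software, and a miRNA was counted as detected on an array where over 50% of the kept spots of at least 1 probe carried that mark.

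miR-210-5p, the opposite strand, was not well above background on any array. Its summed signal, the spot means added over its probes, was -18.9, -18.7 and -16.1 intensity units on the 2-month arrays and -16.8, -18.6 and -19.2 on the 20-month arrays. Values below 0 can arise because the software subtracts a background estimate, and why these lay below 0 was not tested. The median negative-control spot, processed in the same way, read 2.36 to 3.34 on the same arrays. That is the value of a single spot, while the sums above add both probes. Both probes of miR-210-5p had 0 well-marked spots of the 15 to 20 kept on each array. The groups overlapped, and with both ages under background no fold is given.

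miR-210-3p was detected on all 6 arrays, at a low level. Its summed signal was 101.0, 67.7 and 99.3 intensity units on 2-month arrays 1 to 3, and 59.6, 98.2 and 78.7 on 20-month arrays 1 to 3. Before scaling, 20-month array 2 was thus as bright as the brightest 2-month arrays, and 2-month array 2 was dimmer than 20-month arrays 2 and 3. The range over the arrays was 1.69-fold.

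Arrays differ in overall brightness, so each was divided by its 75th percentile over the 315 probes detected on all arrays. This value was 1415, 1203 and 1191 units on the 2-month arrays and 1171, 2054 and 1284 on the 20-month arrays. On the resulting log2 scale miR-210-3p stood at -3.81, -4.15 and -3.58 at 2 months and at -4.30, -4.39 and -4.03 at 20 months. The low level of 20-month array 2 thus followed from its large divisor, while 20-month array 1 was low with and without scaling. The groups overlapped, since 20-month array 3 lay above 2-month array 2. All values were within 0.84 to 1.64 (log2) of the floor of -5.22, the median over arrays of the dimmest probe still well above background. That floor is the value of a single probe, while the level is a sum over both probes of miR-210-3p. The brighter probe, A_54_P1443, alone stood at -4.51, -4.75 and -4.27 at 2 months and at -5.00, -5.07 and -4.74 at 20 months. The sum also holds the signal of the other probe where that lay under the floor.

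**Figure D1:**
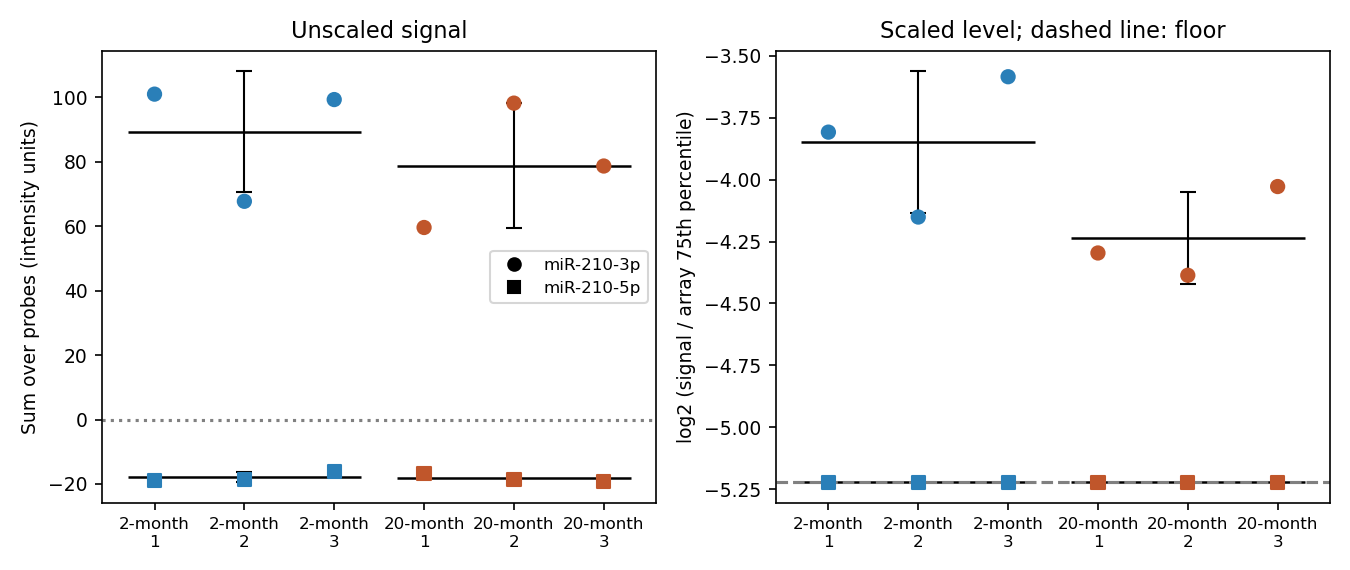
Level of miR-210-3p (circles) and miR-210-5p (squares) on each of the 6 arrays, as unscaled summed intensity (left) and as the scaled log2 level (right, floor at -5.22 dashed). Horizontal lines are group means and bars are SD (n = 3); miR-210-3p overlaps between the ages in both panels and miR-210-5p lies at the floor throughout.

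The mean scaled level of miR-210-3p was -3.85 ± 0.29 (SD, n = 3) at 2 months and -4.24 ± 0.19 (SD, n = 3) at 20 months. The difference of -0.39 ± 0.17 (log2 ± SE), or 1.31-fold lower at 20 months, did not pass the threshold of 0.05 (limma adjusted p = 0.194 over 193 tested miRNAs). Its 95% interval ran from -0.80 to 0.019, that is from 1.74-fold lower to 1.01-fold higher. Of the 193 miRNAs, 4.15% were called higher and 3.63% lower at 20 months (7.77% in either direction), and miR-210-3p was not among them. These were 8 higher and 7 lower, a split that moved to 18 and 3 with the median over detected probes as the divisor and to 19 and 2 with quantile normalization. The groups did not overlap, with 20-month values lower, for 20.2% of the tested miRNAs, and miR-210-3p was not among these either. The tested miRNAs had a median difference of -0.083, and 30 of them had a lower difference than miR-210-3p. RNA of whole kidney was measured, so fewer cells that make a miRNA and less of it per cell cannot be told apart.

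The standard error that the spots give to the log2 level of miR-210-3p was 0.031 to 0.058 on each array. It covers noise between spots of 1 array only and leaves out variation between arrays, labelling and preparations. The SE of the age difference, 0.17, was larger than the median SE of the tested miRNAs, 0.10.

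Each strand was read by a pair of probes, and the probes of miR-210-3p differed in how often they were detected. Probe A_54_P1443 gave 62.1, 44.6 and 61.8 units at 2 months and 36.5, 61.0 and 47.9 at 20 months. At least 75% of its kept spots were well above background on every array. Probe A_54_P1444 gave 38.9, 23.1 and 37.5 units at 2 months and 23.1, 37.2 and 30.8 at 20 months. On this probe both ages again shared their range, and 2-month array 2 and 20-month array 1 were the dimmest on it.

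The share of well-marked spots on A_54_P1444 was 70%, 0% and 64.7% on the 2-month arrays and 16.7%, 47.1% and 5.56% on the 20-month arrays. It was thus detected on 2-month arrays 1 and 3 alone. miR-210-3p was counted as detected at 20 months through A_54_P1443. On the scaled log2 scale A_54_P1443 stood 0.43 lower at 20 months (-0.43 ± 0.15 SE, limma adjusted p = 0.135 over 354 tested probes). A_54_P1444 passed no detection filter in either group and was not tested. On the scaled log2 scale it lay at the floor on 2-month array 2 and on all 20-month arrays, so no difference is given for it. The probes read 1 miRNA and are not replicates.

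**Figure D2:**
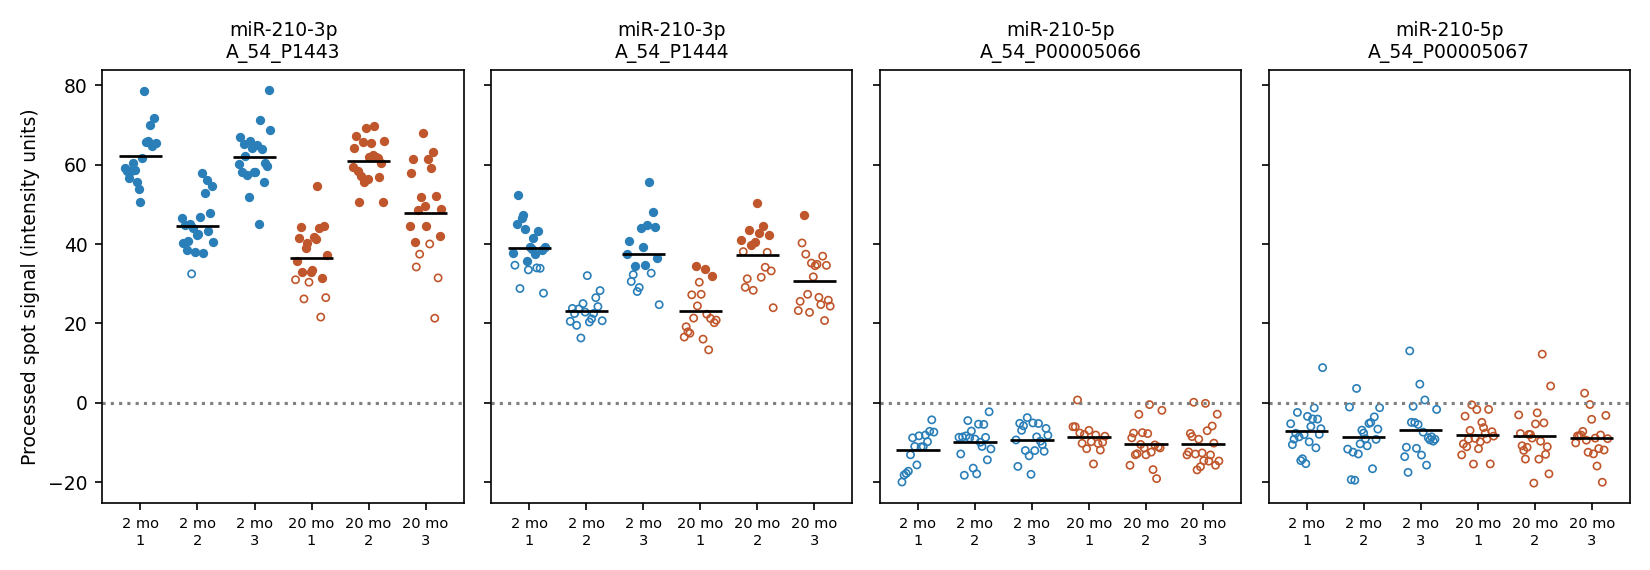
Processed signal in intensity units of each kept spot of the probes of miR-210-3p (left panels) and miR-210-5p (right panels), by array, with 2-month arrays in blue and 20-month arrays in orange. Filled points are well above background, open points are not, and lines are spot means; A_54_P1443 lies at 36.5 to 62.1 units on average and the miR-210-5p probes lie below 0.

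The authors' deposited values put the ages closer together. In that table, on a log2 scale with 1 constant per array, miR-210-3p was -1.24, -2.23 and -1.08 at 2 months and -1.72, -1.65 and -1.40 at 20 months. Here 2-month array 2 is the lowest of all 6 and lies apart from the other 2-month arrays. The difference was -0.073 ± 0.32 (SE), with a limma adjusted p of 0.894. The table follows the software's total gene signal, which for miR-210-3p was the sum of both probes' total signals on 5 arrays. On 2-month array 2 it was 12.6, the total of A_54_P1443 alone, and the 6.53 of A_54_P1444 was not in it. With that probe added and the authors' constants kept, 2-month array 2 stood at -1.63 and the difference was -0.27 ± 0.17 (SE, limma adjusted p = 0.351). That recalculation was added after the values were seen.

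The size of the difference depended on the processing and its sign mostly did not. Over 26 alternatives, including those that left out an array, the difference was below 0 in 25 and past the adjusted threshold in 0, with an unadjusted limma p under 0.05 in 7. These alternatives reuse the same arrays and are not independent. Those that changed only the detection filter, took a smaller floor or blocked on the replicate number kept the estimate at -0.39. Their sign could not differ, and they add nothing to that count. The difference was 0.024 ± 0.30 with arrays divided by the 75th percentile over all probes, which lay at 4.32 to 5.59 intensity units, near the negative-control level. That scaling put the median of all tested miRNAs at 0.33. Relative to that median, miR-210-3p stood at -0.31, the same as under the main scaling, since a divisor shifts all miRNAs of an array together. Quantile normalization gave -0.15 and no scaling gave -0.19. Scaling by labelling spike-ins, RNAs added in known amount before labelling, gave -0.29 ± 0.32. Without 2-month array 3 the difference was -0.26, over 1.5 times smaller, and without 2-month array 2 it was -0.54. With 2-month array 2 left out the limma adjusted p was 0.150.

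The arrays sat on 1 slide, in rows. Row 1 held all 2-month arrays and 20-month array 1, and row 2 held 20-month arrays 2 and 3. Blocking on the slide row, the fit gave a difference of -0.45 ± 0.24 (SE, limma adjusted p = 0.356). Within row 1, where 20-month array 1 is the single aged array and is assumed to vary like the others, it was -0.48 ± 0.19 (limma adjusted p = 0.140). Both rest on that one array, and row 2 held no 2-month array.

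**Figure D3:**
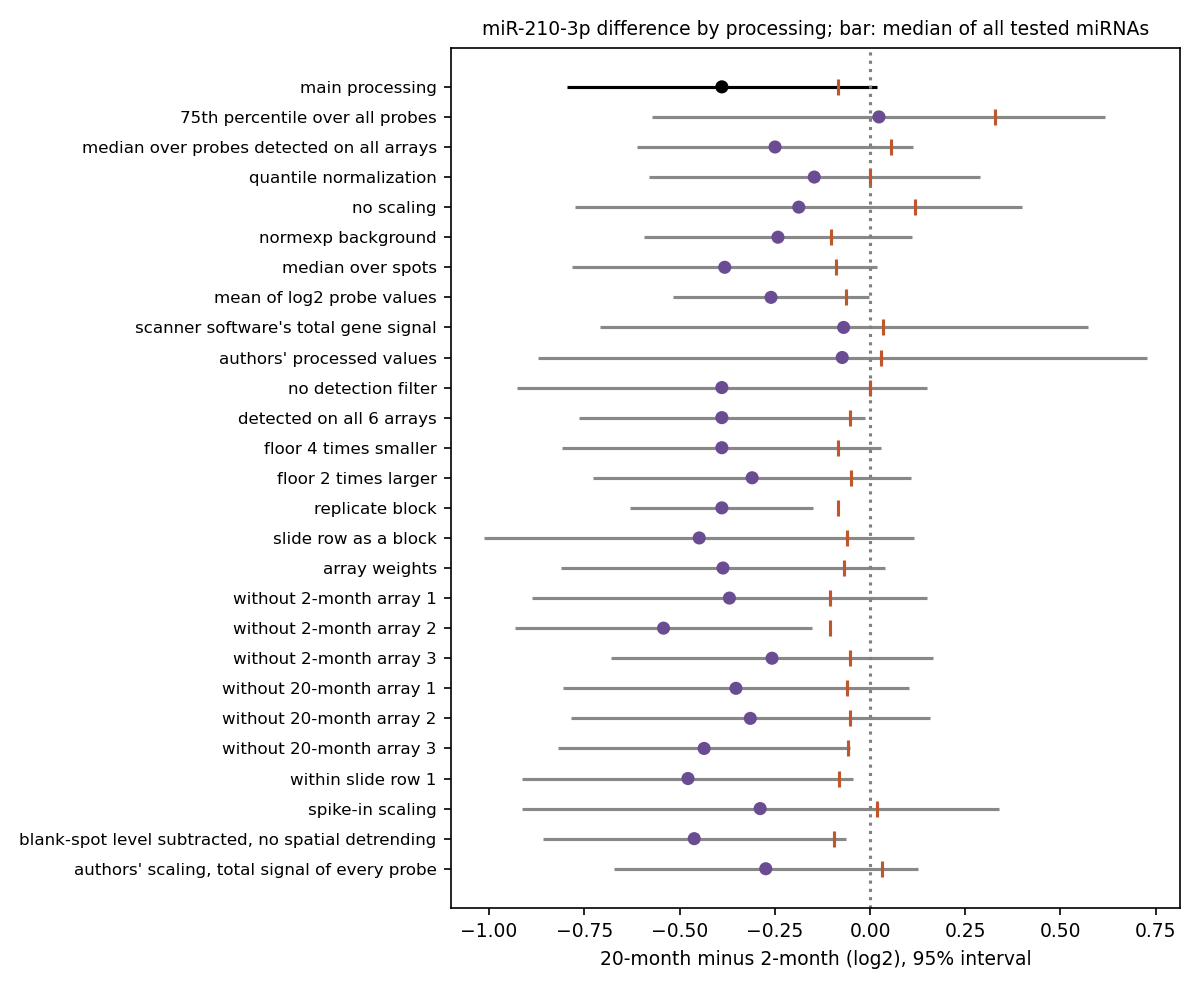
Difference of miR-210-3p between 20 and 2 months (log2, points) with its 95% interval (lines) under the main processing (black) and each of 26 alternatives. Orange bars mark the median difference of all tested miRNAs under the same alternative; all points but that of the 75th percentile over all probes (0.024) lie below 0.

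Other miRNAs tied to oxygen were set beside miR-210-3p from lists chosen by what is known of them. The first list holds 15 miRNAs reported to respond to low oxygen in cultured cells, and all 15 were tested. Of these, 0 passed the threshold upward and 1 downward, miR-181c-5p, against the 4.15% and 3.63% given above for all tested miRNAs. By limma 4 of the 15 had an unadjusted p under 0.05, beside 49 of all 193 tested miRNAs, a like share. The list had 8 positive and 7 negative differences, with a median of 0.022 beside -0.083 for all tested miRNAs, and it ranged from -0.52 to 0.32. miR-181c-5p, a member of the miR-181 family of lymphocyte-rich miRNAs, stood at -0.49 ± 0.094 (SE, limma adjusted p = 0.0258). Its relatives with the same seed, miR-181a-5p and miR-181b-5p, stood at -0.47 ± 0.12 and -0.52 ± 0.14 (limma adjusted p = 0.0528 and 0.0791).

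The call of miR-181c-5p was kept in 10 of 26 alternatives and in 2 of the 6 that left out 1 array. It was lost without any one of 2-month arrays 1, 2 and 3 (limma adjusted p = 0.177, 0.0759 and 0.0991) and without 20-month array 3 (limma adjusted p = 0.122), with differences of -0.56 to -0.44 over these fits.

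The second list holds 11 miRNAs reported to act on HIF itself or on proteins that control it, such as the von Hippel-Lindau protein, its partner Cul2 and the HIF hydroxylase FIH. Of these 8 were tested, 1 passed the threshold upward, miR-199a-5p, and 0 downward, beside 4.15% and 3.63% of all tested miRNAs. An unadjusted limma p under 0.05 was found for 2 of the 8, again a share like that of the 49 of 193. Their median was -0.017 and the range -0.31 to 0.34. miR-199a-5p, reported to repress the HIF alpha subunit and abundant in mesenchymal cells, stood at 0.34 ± 0.065 (SE, limma adjusted p = 0.0258). Its call was kept in 13 of 26 alternatives and in 1 of the 6 that left out 1 array, and the difference stayed above 0 in all 26. Of single arrays, leaving out 20-month array 1 alone kept the call, and leaving out each of the others gave limma adjusted p of 0.0585 to 0.195.

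miR-322-5p, reported to act on Cul2, stood at -0.31 ± 0.092 (limma adjusted p = 0.0864), and miR-155-5p, an inflammatory miRNA that represses HIF in culture, stood at 0.32 ± 0.13 (limma adjusted p = 0.186). Both of these miRNAs are members of each list. miR-31-5p was detected on 1 array, miR-18a-5p on 3 and miR-135b-5p on 0, and these were not tested. Sequences of the miRNAs of these lists that passed the threshold are given with the seed in capitals, to show that neither has the seed of miR-210-3p.
miR-181c-5p: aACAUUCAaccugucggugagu
miR-199a-5p: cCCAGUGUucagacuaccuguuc

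**Figure D4:**
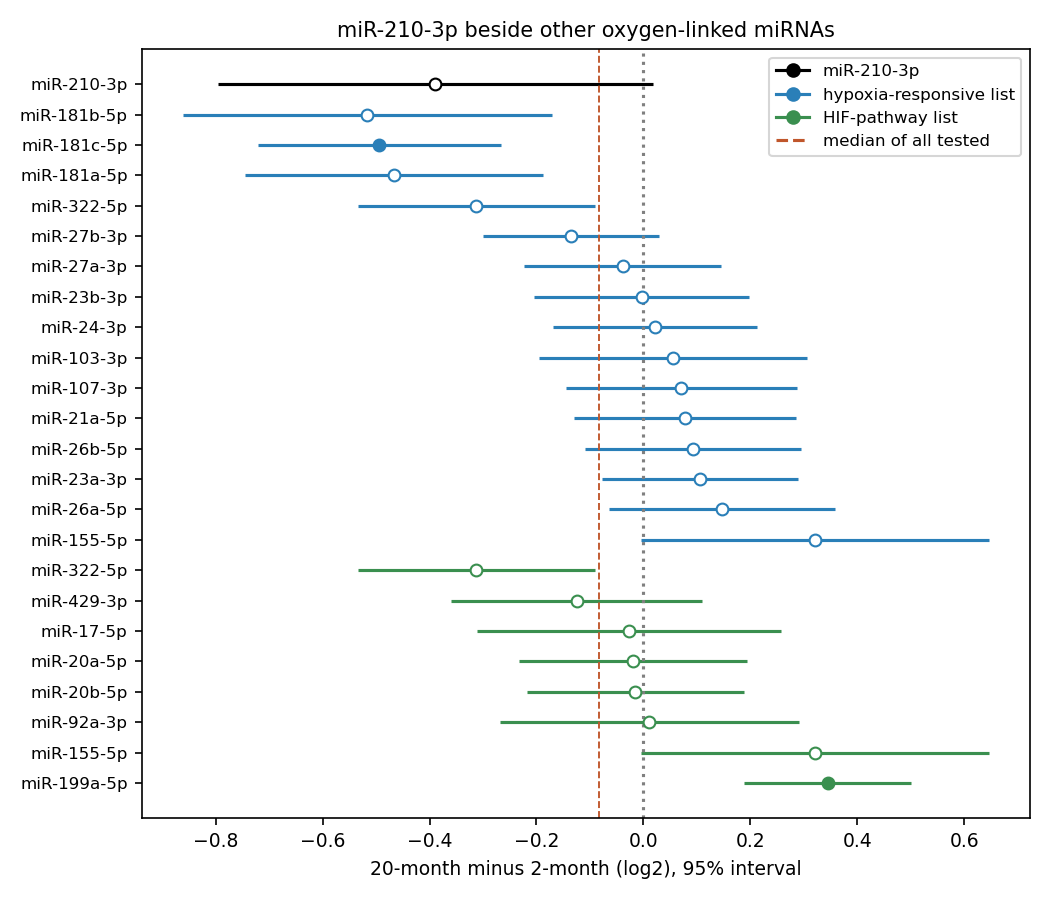
Difference between 20 and 2 months (log2) with its 95% interval for miR-210-3p (black), the hypoxia-responsive list (blue) and the HIF-pathway list (green), filled where the limma adjusted p was under 0.05. The dashed line is the median of all tested miRNAs (-0.083); miR-181c-5p and miR-199a-5p are the filled points and miR-210-3p (-0.39) is open.

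Across the arrays, the miRNAs whose scaled levels moved most like miR-210-3p were miR-99a-5p (Pearson r = 0.977 over 6 arrays), miR-100-5p (0.949), miR-125a-5p (0.944), miR-196b-5p (0.936) and miR-10b-5p (0.932). This is a description over 6 points that share each array's divisor and the age groups, and the median r of the 192 other tested miRNAs was 0.38. Of these 192, 11 had an r over 0.9, so the 5 named are the top of a larger group. miR-99a-5p was 0.28, 0.22 and 0.40 at 2 months and 0.15, 0.14 and 0.27 at 20 months. Like miR-210-3p it was highest on 2-month array 3 and lowest on 20-month arrays 1 and 2, over a narrower range. Their differences between ages ran from -0.19 to -0.11, and the limma adjusted p was 0.239 to 0.531.

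With deviations from each group's mean in place of levels, miR-125a-5p (0.984) and miR-99a-5p (0.963) were again among the 5 most alike, with miR-3069-3p (0.972), miR-30a-5p (0.961) and miR-3096b-3p (0.954). On 2-month array 2 miR-3069-3p lay at the floor, so its r rests partly on a floored value. The median r of the tested miRNAs was 0.51 on this measure, and 12 of 192 had an r over 0.9. The likeness depended on the processing. Over the 26 alternatives the lowest r was 0.487 for miR-99a-5p and 0.656 for miR-125a-5p, both with the median over detected probes as the divisor. It was 0.608 for miR-100-5p with quantile normalization, 0.755 for miR-196b-5p in the authors' deposited values and 0.448 for miR-10b-5p with normexp background correction. miR-99a-5p and miR-100-5p share a seed, and miR-125a-5p has another.
miR-99a-5p: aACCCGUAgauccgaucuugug
miR-100-5p: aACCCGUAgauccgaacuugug
miR-125a-5p: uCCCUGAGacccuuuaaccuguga

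**Figure D5:**
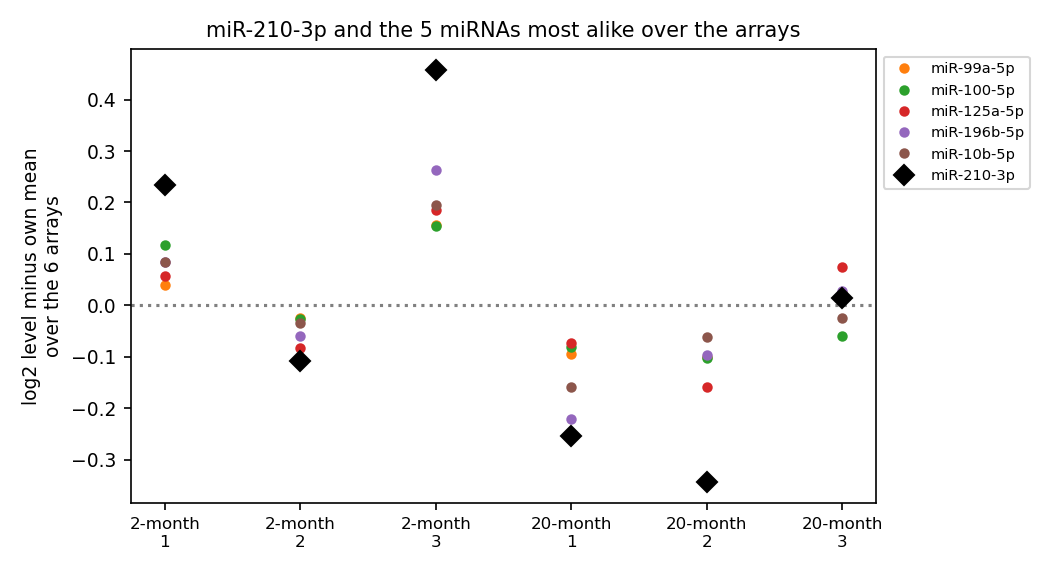
Scaled log2 level minus its own mean over the 6 arrays for miR-210-3p (diamonds) and the 5 miRNAs with the highest Pearson r (circles). All 6 miRNAs are highest on 2-month array 3, and miR-210-3p has the widest range of them.

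Between 177 and 209 miRNAs were detected per array, and 0 non-control spots were saturated. All 5 kidney miRNAs listed as tissue markers, among them miR-192-5p, miR-194-5p and miR-204-5p, were detected on all 6 arrays and 0 of them passed the threshold by limma (1 of 5 had an unadjusted p under 0.05, beside 49 of 193 overall). Of 4 miRNAs of other organs, the liver miRNA miR-122-5p and the muscle miRNAs miR-133a-3p and miR-208a-3p were detected on 0 arrays, and the neuronal miR-124-3p on the 3 arrays of 20-month kidney alone. miR-124-3p entered the fit only through that detection, with a difference of 1.37, and it is counted among the 8 miRNAs called higher. Its 2-month values were all set to the floor, with an SD of 0, so the size, SE and p of its difference all depend on the floor. Its call is therefore not read as a result. The 3 erythroid miRNAs, miR-451a, miR-144-3p and miR-3107-5p, stood at -0.73 to -0.34, with their summed scaled level at 3.07 to 3.23 (log2) at 2 months and 2.67 to 2.84 at 20 months. That sum, taken before the log, is mostly miR-451a. Mean log2 levels at 2 months were 3.03 for miR-451a, -1.18 for miR-144-3p and -3.68 for miR-3107-5p. The 3 tested of 4 leukocyte miRNAs, miR-223-3p, miR-142-3p and miR-142-5p, stood at 0.38 to 0.55, with summed levels of -0.86 to -0.66 and -0.51 to -0.19, and 0 of either list passed the threshold by limma (3 of 3 and 2 of 3 had an unadjusted p under 0.05, beside 49 of 193 overall). The differences of the erythroid miRNAs and of miR-210-3p were all below 0 and none passed the threshold by limma. The part of erythroid RNA in the value of miR-210-3p was not tested.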

How the data were processed

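Per the file headers, arrays of design 046065 (build mm9) were read with Feature Extraction 11.5.1.1. The deposited spot values are fluorescence intensity, from which that software had taken background and a spatial trend, with arrays left on their own scales. Flags deposited with them mark spots above background, outliers and saturation. The authors' processed table holds log2 values, which matched the software's total gene signal on that scale less 1 constant per array (largest departure 1.02e-05 over 1247 miRNAs). How that constant was set is not given in the labels.

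Processed intensity was averaged over a probe's spots without outliers, scaled by the 75th percentile of the probes detected on all arrays, summed over a miRNA's probes, set to the floor where lower, and put on the log2 scale. The 193 miRNAs detected throughout at least 1 age group entered limma 3.58.1 (R 4.3.3) through lmFit and eBayes, with age as the only term and Benjamini-Hochberg adjustment. The fit was tested on simulated data. Intervals are at 95%. Files were read with data.table, version 1.17.8, and jsonlite 2.0.0, the hairpin was folded with RNAfold 2.7.2 and matplotlib 3.10.9 drew the figures. The named miRNAs are both strands, list members past the threshold or with the 3 smallest p, the 5 most alike and the closest in sequence. The rule for the closest named 3 per strand; for miR-210-5p the last of these, tied at 8 bases, is not shown. Sequences are RefSeq's on GRCm38.p6. The array name miR-3107-5p was taken for miR-486-5p through RefSeq synonyms. The normexp alternative used the median spot signal in place of the mean. Kidney, erythroid and leukocyte miRNAs named beyond this rule were listed as markers. Members and lists were chosen with earlier results of these data known.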

Additional observations from a re-analysis of the deposited data

How the results depend on the processing

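Depth on these arrays is signal over background, and miR-210-3p lay close to the floor, which limits how far a fall could be measured. No difference is given for miR-210-5p, which was below background on every array. The difference of miR-210-3p passed the threshold in 0 of 26 alternatives. It kept its sign in 25, some of which could not change the estimate, and turned to 0.024 with the all-probe 75th percentile. Probe A_54_P1443 gave no value with the floor 2 times larger. Leaving out each array gave -0.54 to -0.26 (limma adjusted p = 0.150 to 0.443). Spike-in scaling, blank-spot subtraction and the authors' scaling with every probe were added after the data were seen, and the cause of each shift below was not tested.

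Counts of miRNAs past the threshold, 8 higher and 7 lower, became 18 and 3 with the median over detected probes, 19 and 2 with quantile normalization, 1 and 1 with no scaling or the software's total signal, 4 and 0 with normexp (by limma, 18 had a lower level with an unadjusted p under 0.05), 4 and 2 without a detection filter, and 2 and 3 with slide row as a block. Higher counts became 1 with spike-ins. Lower counts became 0 in the authors' values (10 at an unadjusted p under 0.05 by limma), 3 with every probe added and 12 with blank subtraction. Leaving out 1 array gave 3 to 12 higher and 2 to 27 lower.

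The median of the hypoxia-responsive list (0.022) was 0.43 with the all-probe percentile, 0.16 with the median divisor, 0.22 unscaled, 0.14 with the total signal and in both sets of authors' values, 0.12 with spike-ins, -0.054 with slide row as a block and -0.084 within row 1 (-0.016 to 0.067 leaving out 1 array). That of the HIF-pathway list (-0.017) was 0.40, 0.12, 0.19, 0.10 (total signal), 0.098 (both sets of authors' values) and 0.099 (spike-ins) under the same scalings, 0.16 with quantile normalization and -0.15 within row 1 (-0.055 to 0.040 leaving out 1 array). Members past the threshold in the first list were 0 to 1 higher and 0 to 3 lower, and in the second 0 to 2 higher and 0 lower. The sign of miR-322-5p turned under the all-probe percentile (0.10) and that of miR-155-5p with normexp (-0.016).

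Replicate numbers gave no clear pairing of the arrays over all tested miRNAs. The deviations of same-numbered arrays correlated at 0.12, -0.58 and 0.31, and 1 of 6 arrays correlated best with its own number. The most variable miRNAs weigh most in these correlations, and 3 arrays per age cannot exclude a pairing. The labels do not say whether the numbers pair arrays. For miR-210-3p the SE of the difference was 0.17 without the replicate block and 0.086 with it. With the replicate number as a block, the difference of miR-210-3p was -0.39 ± 0.086 (limma adjusted p = 0.0851), 2 miRNAs were higher and 1 lower, and 0 members of either list passed by limma (4 of 15 and 2 of 8 with an unadjusted p under 0.05, a share like that of all 193, where 19 higher and 34 lower had one).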
